A study of Mus musculus with 2 samples.

Results

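The insulin and insulin-like growth factor (IGF) genes examined here are 10 genes chosen by symbol from the gene list of the deposited count table: the ligand gene Igf1, the receptor genes Insr, Igf1r and Igf2r, the receptor substrate genes Irs1 and Irs2, and the binding protein genes Igfbp3, Igfbp4, Igfbp5 and Igfbp6. All 10 were found among the 25509 genes of the table, each on 1 row, and 9 of them reached the minimum of 10 counts in 1 library or both that was applied to all genes. Igfbp5 did not, with 8 and 6 counts. The cells were mouse soft-tissue sarcoma cells of the C57BL/6 strain, mesenchymal stem cells that lack p53 and overexpress Ccne1 from a retroviral vector. They had grown as subcutaneous tumors, were then seeded in the lungs of further mice, and were recovered from lung foci. After recovery the cells were transduced with a lentiviral hairpin against the circular RNA circCsnk1g3 (shcircCsnk1g3) or with the control hairpin (shCTR), the hairpin being placed across the junction of the circle, which was the only difference between the groups that the labels give. Each group was 1 library of poly(A) RNA, so there was no replicate check, no test between the conditions was possible and no p-value was computed. In bulk RNA, a lower level in every cell and fewer cells that express a gene cannot be told apart.

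Insulin and the IGFs are secreted hormones that bind receptor tyrosine kinases at the cell surface. INSR and IGF1R phosphorylate the adaptor proteins IRS1 and IRS2, which recruit PI3-kinase and so lead to AKT, mTOR and the FOXO transcription factors. IGF2R takes IGF2 up for degradation and also carries lysosomal enzymes, and the IGFBP proteins bind IGFs outside the cell and set how much ligand is free. Mesenchymal cells secrete several IGFBPs, and signalling through IGF1R is a known growth signal of sarcoma cells. The comparison of the libraries asks which of these transcripts differ once the circular RNA is silenced.

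Depth was similar, with 38792143 counts in all for shcircCsnk1g3 and 42709996 for shCTR. The gene that gives rise to circCsnk1g3, Csnk1g3, had 2159 and 2411 counts, a log2 fold change of -0.05 (-0.14 to 0.03), and these stand for the linear transcript because a circular RNA has no poly(A) tail. Ccne1 had 893 and 963 counts, and Trp53 still had 3841 and 4334 counts in cells labelled p53-/-, where counts per gene do not show which exons the reads came from. Of 12 mesenchymal marker genes 11 passed the count minimum, among them Col1a1, Pdgfra and Prrx1, while Thy1 had 0 and 1 counts. Of 10 leukocyte markers 8 had at most 3 counts in either library, and the 10 together summed to 2.30 CPM (counts divided by the library total, itself multiplied by a TMM factor that evens out composition) in shcircCsnk1g3 and 3.88 CPM in shCTR, most of it from Cd68 with 87 and 155 counts. Ptprc was at 1 and 0 counts. The 6 endothelial markers summed to 0.485 and 0.686 CPM and the 8 lung epithelial markers to 0.408 and 0.521 CPM. Of the lung epithelial markers 6 had 0 counts in both libraries, among them Epcam and Sftpc. Ager, with 15 and 16 counts, was the only one past the count minimum, and Cdh1 had 1 and 6.

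The stretches of promoter below are those of Igfbp4 and Irs2, the lowest and the highest of the genes past the count minimum, and of Irs1, shown beside its paralog Irs2. They come from RefSeq on GRCm38.p6, in which 9 of the 10 genes had a window of 250 bases before to 50 bases after the start of transcription. Each is read 5′ to 3′ on the strand of the gene, with the motif in capitals, and lies upstream of the start. The Irs1 stretch lies at chr1:82291509-82291584 on the minus strand, the Irs2 stretch at chr8:11008930-11009003 on the minus strand, and the Igfbp4 stretch at chr11:99041166-99041243 on the plus strand.
Irs1: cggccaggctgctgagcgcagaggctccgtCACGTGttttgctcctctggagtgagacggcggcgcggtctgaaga
Irs2: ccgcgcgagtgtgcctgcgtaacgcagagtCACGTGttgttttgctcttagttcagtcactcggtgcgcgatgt
Igfbp4: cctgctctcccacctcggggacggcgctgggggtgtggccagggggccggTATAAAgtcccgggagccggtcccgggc

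In the Irs1 and Irs2 stretches the capitals mark the E-box CACGTG, a motif read by basic helix-loop-helix factors. It began 115 bases before the RefSeq start of Irs1 and 44 bases before that of Irs2. The GENCODE M21 genes used for lengths and positions start further downstream, by 23 bases for Irs1 and 471 bases for Irs2, and at the same base for Igfbp4. For other genes the starts differ as well. The RefSeq start of Igf1 lies inside the GENCODE gene, and that of Igf1r lies 570 bases upstream of it. The longest runs that both windows shared were 2 of 10 bases, GTCACGTGTT around the E-box and TGTTTTGCTC, which begins within the E-box in Irs1 and after it in Irs2. The E-box was in 7.15% of all 32851 windows and in those of 3 of the 9 genes, the other being Igf2r, which had 2 copies. In the Igfbp4 stretch the capitals mark the TATA box core TATAAA, 28 bases before the start. This motif was in 13.6% of windows and, on the opposite strand, also in that of Igfbp6, 148 bases before the start. The FOXO motif GTAAACA, the AP-1 motif TGACTCA, the cyclic AMP response element TGACGTCA, the ATF4 composite motif TGATGCAA and the core of the interferon-stimulated response element TTTCNNTTT were searched on both strands. None of them was in a window of the 9 genes. Over all windows the shares were 3.65%, 5.20%, 1.79%, 0.895% and 10.6%, at which 9 windows can well hold none. No matches overlapped one another. A match of letters describes the sequence only.

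The levels of the 10 genes spanned several orders of magnitude and kept nearly the same order in both libraries. Levels of different genes are compared as CPM per kb of exon, with the same TMM scaling and the union of annotated exons as the length, and each has a 95% Poisson interval that covers counting error only. Igfbp6 was the highest, at 199.8 (195.6 to 204.0) CPM per kb in shcircCsnk1g3 and 197.7 (193.7 to 201.7) in shCTR. Igfbp4 came next, at 80.9 (79.5 to 82.2) and 127.6 (126.0 to 129.3) CPM per kb. Transcripts of secreted binding proteins were therefore the 2 most abundant of the family in both libraries. Igfbp3, Insr, Irs2 and Igf2r followed between 9.23 and 17.9 CPM per kb. Within this middle group the order changed: Igfbp3 at 17.9 was above Insr at 15.3 in shCTR, but in shcircCsnk1g3 both were at 16.1 with overlapping intervals. Likewise Irs2 was below Igf2r in shCTR, at 9.23 against 10.5 CPM per kb, and above it in shcircCsnk1g3, at 12.1 against 10.8. Igf1r, at 4.78 and 4.93 CPM per kb, and Irs1, at 2.83 and 3.08, lay lower. Igf1 and Igfbp5 were the lowest, at 0.0850 and 0.0717 CPM per kb for Igf1 and 0.0340 and 0.0236 for Igfbp5. Their intervals overlapped in both libraries, from 0.0585 to 0.119 for Igf1 and from 0.0147 to 0.0669 for Igfbp5 in shcircCsnk1g3, and from 0.0484 to 0.102 and from 0.00868 to 0.0515 in shCTR.

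**Figure D1:**
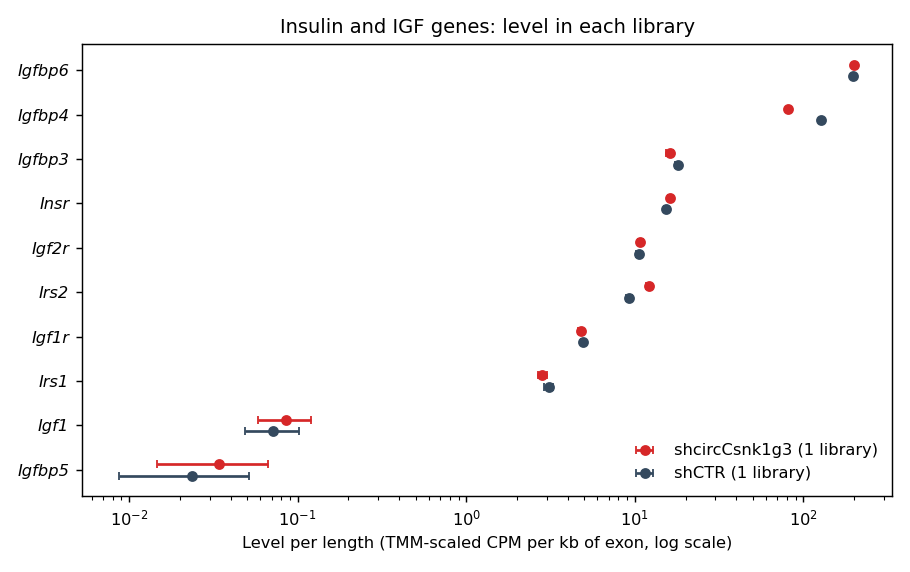
Level of each of the 10 genes in the shcircCsnk1g3 library (red) and the shCTR library (dark blue), in TMM-scaled CPM per kb of exon on a log axis, with 95% Poisson intervals of the counts as bars (1 library each). Igfbp4 shows the widest gap between the libraries among the well-covered genes, 80.9 against 127.6, and Irs2 moves past Igf2r.

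None of the 9 genes past the count minimum differed by 2-fold or more between the libraries. Among all 12941 genes past that minimum, 2.13% were at least 2-fold higher in shcircCsnk1g3 and 2.55% at least 2-fold lower. At 1.5-fold, none of the 9 was higher, beside 5.39% of all genes, and 1 was lower, Igfbp4, beside 6.31% of all genes. The median log2 fold change of the 9 genes was 0.02, beside 0.00 for all genes. By 95% intervals (exact, Clopper-Pearson) on the count ratio, which cover counting error only, 2 genes lay above 0 (Irs2 and Insr) and 3 below 0 (Igfbp4, Igfbp3 and Irs1). Over all genes, 26.9% lay above 0 and 28.2% below. Together 5 of 9 genes, 55.6%, had an interval off 0 beside 55.1% of all genes, so as a group the family was near the background of these 2 libraries.

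**Figure D2:**
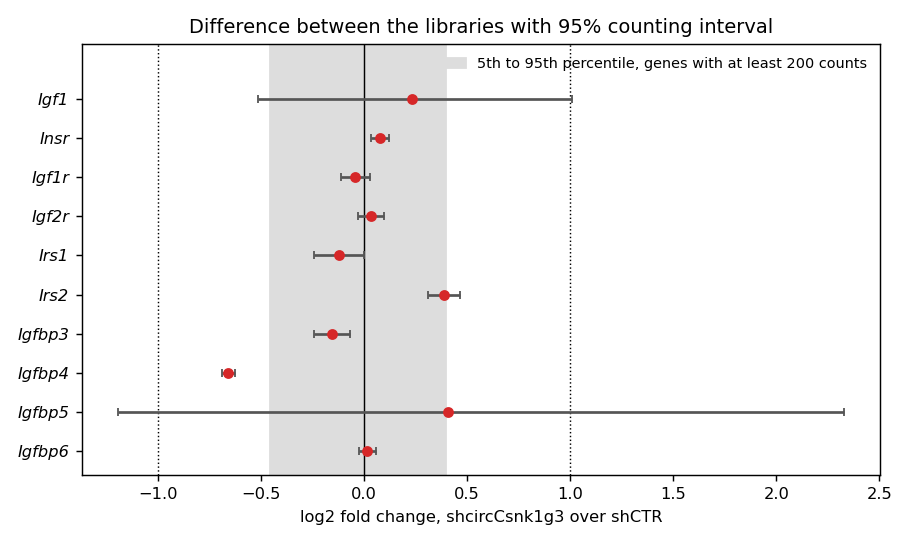
Log2 fold change of each gene, shcircCsnk1g3 over shCTR, with the 95% interval from the counts of both libraries as bars. The grey band spans the 5th to 95th percentile (-0.46 to 0.40) of the 10662 genes with at least 200 summed counts, dotted lines mark 2-fold, and Igfbp4 at -0.66 is the gene outside the band whose whole interval is also outside.

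The ligand gene of the family that was detected, Igf1, which encodes the growth factor that activates IGF1R, had 33 counts in shcircCsnk1g3 and 30 in shCTR. This was 0.842 and 0.710 CPM, a log2 fold change of 0.23 (-0.51 to 1.01). The interval held 0 and spanned more than 2-fold. The genes of the other ligands, Igf2 and the insulin genes Ins1 and Ins2, had 0 counts in both libraries, which allows up to 3 counts, or 0.0765 CPM in shcircCsnk1g3 and 0.0710 CPM in shCTR. At the RNA level the cells in both libraries thus had receptors well above the ligands.

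Insr, which encodes the insulin receptor, had 8675 counts in shcircCsnk1g3 and 8869 in shCTR, or 221 and 210 CPM. After scaling, its log2 fold change was 0.08 (0.03 to 0.12), slightly higher in the silenced library. Igf1r, the main receptor of both IGFs, had 3149 and 3494 counts, or 80.3 and 82.7 CPM, and a value of -0.04 (-0.11 to 0.03). Igf2r, the mannose 6-phosphate receptor that clears IGF2, had 3937 and 4140 counts, or 100.4 and 98.0 CPM, with 0.03 (-0.03 to 0.10). The intervals of Igf1r and Igf2r both held 0. Per kb, Insr was 3.37 times the level of Igf1r in shcircCsnk1g3 and 3.10 times in shCTR, and the log2 ratio of the 2 ratios was 0.12 (0.04 to 0.20). For Igf1r against Igf2r this ratio of ratios was -0.08 (-0.17 to 0.02), an interval that held 0. The related receptor gene Insrr, named after its value was seen, had 0 counts in both libraries.

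The 2 receptor substrates lay on opposite sides of 0. Irs2 had 2997 counts in shcircCsnk1g3 and 2466 in shCTR, or 76.4 and 58.4 CPM. Its log2 fold change of 0.39 (0.31 to 0.47), or 1.31-fold, was the highest of the 9 genes. Of the 10662 genes with at least 200 summed counts, 554 (5.20%) were as high or higher, so Irs2 was near the upper edge of the bulk of genes but not alone there. Irs1 had 1014 and 1189 counts, or 25.9 and 28.1 CPM, and a log2 fold change of -0.12. Its interval ended just short of 0 (-0.24 to -0.00), and with the scaling of the deposited normalized table or with total counts it held 0. The ratio of Irs1 to Irs2 per kb was 0.234 in shcircCsnk1g3 and 0.333 in shCTR, a difference of -0.51 (-0.66 to -0.37) on the log2 scale in which library size and gene length cancel. Irs3 and Irs4, named after their values were seen, had 0 counts in both libraries, so that the IRS transcripts detected were those of Irs1 and Irs2. On the strand opposite to Irs1 the annotation holds Gm9747, with 2822 bases inside Irs1 exons, and it had 0 counts in both libraries. Opposite to Irs2 lies 9530052E02Rik, with 162 bases shared and 3 and 0 counts.

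**Figure D3:**
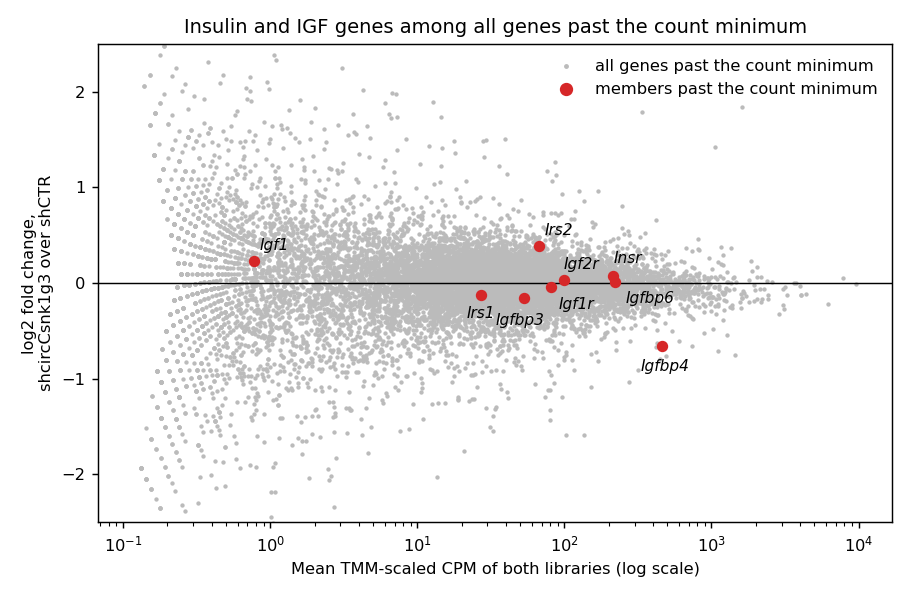
Log2 fold change of all genes past the count minimum (grey, 12941 genes) against their mean TMM-scaled CPM on a log axis, with the 9 insulin and IGF genes past it in red. The vertical axis ends at ±2.5, which leaves out 48 grey points, and Igfbp4 lies at the lower edge of genes of similar level while the others lie inside the cloud.

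Igfbp4, which encodes a secreted IGF-binding protein that mostly keeps IGFs from their receptor, showed the largest difference of the 9 genes in size. It had 14002 counts in shcircCsnk1g3 and 23816 in shCTR, or 357 and 564 CPM. Its log2 fold change was -0.66 (-0.69 to -0.63), 1.58-fold lower in the silenced library (1.55 to 1.61). Of the 10662 genes summing to 200 counts or more, 3.14% were at least 1.5-fold lower, and 258 (2.42%) were as low as Igfbp4 or lower. Where the average level reached 100 CPM, a limit chosen after the values were seen, this held for 20 of 2329 genes (0.859%). The interval from counting was narrow beside the difference. The spread between cultures of one condition was not measured.

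The remaining members of the family that encode binding proteins were nearer to level or too low to tell. Igfbp3, whose product carries most IGF in the circulation, had 1974 and 2369 counts, or 50.3 and 56.1 CPM, and a log2 fold change of -0.16 (-0.24 to -0.07). Igfbp6, whose product prefers IGF2, had 8711 and 9286 counts, or 222 and 219.8 CPM, and a log2 fold change of 0.02 (-0.03 to 0.06). Igfbp5, whose product binds IGFs and matrix, had 8 and 6 counts with an interval from -1.19 to 2.33, so that its direction could not be told at this depth. Igfbp3 was higher relative to Igfbp4 in shcircCsnk1g3, with a log2 ratio of ratios of 0.50 (0.41 to 0.60). The ratios with Igfbp5 had wide intervals that held 0: Igfbp4 against Igfbp5 from -2.99 to 0.54, Igfbp5 against Igfbp6 from -1.21 to 2.31, and Igfbp3 against Igfbp5 from -2.49 to 1.04.

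Of the remaining binding protein genes, Igfbp7, a low-affinity IGF binder abundant in mesenchyme and endothelium, differed much as Igfbp4 did, with 1431 and 2469 counts, or -0.68 on the log2 scale (-0.77 to -0.58). The 6 endothelial markers were scarce, with 19 and 29 counts in all, 2 of them at 0 in both libraries, and the interval of the only one past the count minimum, Cdh5, held 0 (-1.87 to 0.66). Of the 11 mesenchymal markers past the minimum, 7 intervals lay below 0 and 2 above, beside 28.2% and 26.9% of all genes, with a median of -0.10. Intervals are narrow at the high counts of most of these markers. The part of either in the Igfbp7 value was not tested. Of genes given for completeness after their values were seen, Igfbp1 had 0 counts in both libraries, Igfbp2 had 0 and 1, and Igfals, the gene of the acid-labile subunit, had 7 and 2. Over the 7 Igfbp genes the levels summed to 327 CPM per kb in shcircCsnk1g3 and 392 CPM per kb in shCTR. Igfbp6 made up 61.1% and 50.5% of that sum, Igfbp4 24.7% and 32.6%, Igfbp7 9.23% and 12.3%, and Igfbp3 4.92% and 4.57%. The lower sum in the silenced library was thus carried by Igfbp4 and Igfbp7, with Igfbp6 almost level.

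**Figure D4:**
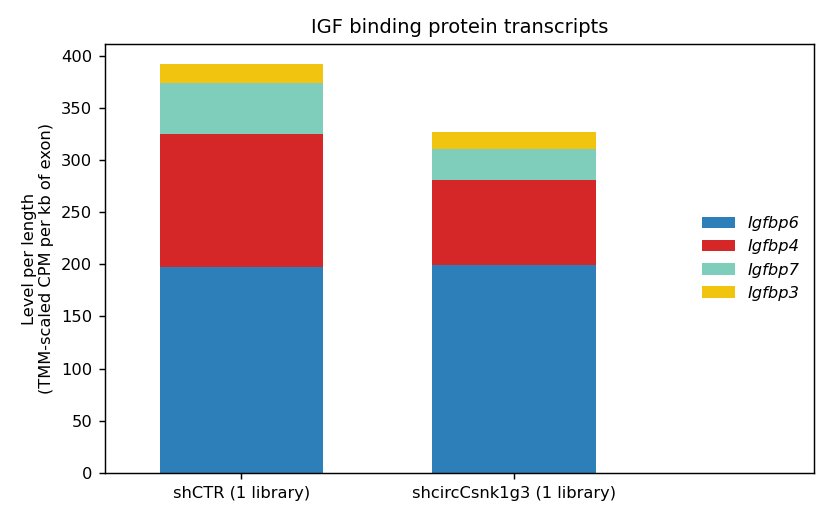
Summed level of IGF binding protein transcripts in each library in TMM-scaled CPM per kb of exon, from 0, with the share of Igfbp6, Igfbp4, Igfbp7 and Igfbp3 in colour (1 library per bar, no error shown). Igfbp1, Igfbp2 and Igfbp5 are too low to draw, and the Igfbp4 segment is 80.9 in shcircCsnk1g3 against 127.6 in shCTR.

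IGFBP4 is cleaved by the protease PAPP-A, which the stanniocalcins inhibit. Of 6 genes in this group, Pappa had 61 and 38 counts, a log2 fold change of 0.76 (0.18 to 1.41), and Pappa2 had 15 and 8 with an interval that held 0. Stc1 had 13 counts in shcircCsnk1g3 and 71 in shCTR, a log2 fold change of -2.18 (-3.32 to -1.48), whereas Stc2, much more abundant, had 4338 and 3863 counts and 0.27 (0.21 to 0.34). Pappa, Pappa2, Stc1 and Stc2 were singled out after their values were seen. Htra1, a secreted serine protease, had 7795 and 11025 counts with -0.39 (-0.43 to -0.35), and Adam12, a metalloprotease that can cleave IGFBPs, had 364 and 274 with 0.51 (0.29 to 0.75). The group thus had members on both sides.

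The lists of the wider pathway, from ligands and proteases to FOXO targets, held 91 other genes, of which 78 passed the count minimum. Their median log2 fold change was -0.03, with 34 higher and 44 lower, and 23 intervals (29.5%) lay above 0 and 28 (35.9%) below, beside the 26.9% and 28.2% of all genes. Together 65.4% of these intervals left 0, beside 55.1% of all genes, and counts were not matched between them. Past 2-fold there was 1 higher gene, Socs2, and 2 lower genes, Stc1 and Pdk4, beside 2.13% and 2.55% of all genes. All 3 had few counts and were named after their values were seen. Socs2, a feedback inhibitor of growth hormone signalling, had 72 and 24 counts and a difference of 1.61 on the log2 scale (1.01 to 2.42), and Pdk4, a kinase that shuts down pyruvate dehydrogenase, had 1 and 14 counts with an interval from -9.10 to -0.98.

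Of 12 adaptor genes that passed, 2 intervals lay above 0, 4 below and 6 held 0, beside 26.9% above and 28.2% below over all genes. The values ran from -0.56 (-0.69 to -0.43) for Dok1 to 0.51 (0.26 to 0.77) for Dok4, both docking proteins of tyrosine kinases. Grb2, which links IRS and SHC proteins to RAS, had 2551 and 3157 counts with -0.20 (-0.28 to -0.12). Among 13 inhibitors of the pathway, 4 intervals lay above 0, 5 below and 4 held 0, read against the same shares. The highest of those with at least 200 summed counts was Trib3, a pseudokinase that binds AKT and is also a target of the integrated stress response, with 6886 and 4091 counts and 0.86 (0.80 to 0.91). The lowest was Inpp4b, a phosphoinositide phosphatase, with 1381 and 2168 counts and -0.54 (-0.64 to -0.45). Grb14, an adaptor that blocks the insulin receptor kinase, was close to it with 1217 and 1906 counts and -0.54 (-0.64 to -0.44). Grb14 and Grb2 were named after their values were seen.

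Of 10 PI3-kinase and AKT genes, 1 interval lay above 0, 5 lay below and 4 held 0 (median -0.07), beside 26.9% above and 28.2% below over all genes. The one above was Pik3r1, which encodes a regulatory subunit that docks on IRS proteins, with 2291 and 1923 counts and 0.36 (0.27 to 0.45). Pik3r2, a regulatory subunit named after its values were seen, had more counts, 8524 and 10202, with -0.15 (-0.19 to -0.11). Pik3r3, another regulatory subunit of far lower level, had 87 and 180 counts with -0.93 (-1.33 to -0.56). Of 16 genes of the GSK3, TSC and mTOR branch, 5 intervals lay above 0, 4 below and 7 held 0, read against the same shares, around a median of 0.02, with values from -0.40 for Tbc1d4, which controls glucose transporter traffic, to 0.26 for Eif4ebp1, a translation repressor that mTOR phosphorylates. Of 3 FOXO factor genes that passed, 2 intervals lay above 0, 0 below and 1 held 0, read against the same shares. Foxo1 had 629 and 564 counts with 0.26 (0.10 to 0.43) and Foxo4 had 1291 and 1476 with -0.09 (-0.19 to 0.02). Foxo3, named after its values were seen, had 7374 and 7272 counts with 0.13 (0.08 to 0.17).

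**Figure D5:**
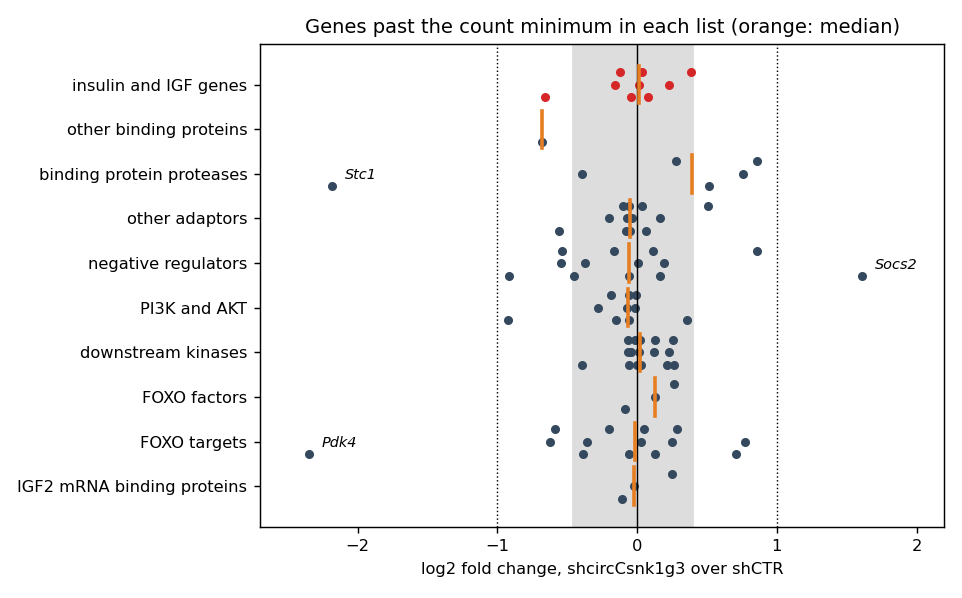
Log2 fold change, shcircCsnk1g3 over shCTR, of the genes past the count minimum in each list, with the insulin and IGF genes in red, the other lists in dark blue, and an orange bar for each median. The grey band is the 5th to 95th percentile of genes with at least 200 summed counts, dotted lines mark 2-fold, and the genes beyond 2-fold are Socs2, Stc1 and Pdk4.

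The 10 genes lie on 7 chromosomes in the GENCODE M21 annotation of GRCm38. Irs2 (ENSMUSG00000038894) spans chr8:10984681-11008458 and Insr (ENSMUSG00000005534) chr8:3122061-3279617, both on the minus strand. Irs1 (ENSMUSG00000055980) spans chr1:82233101-82291416 and Igfbp5 (ENSMUSG00000026185) chr1:72857932-72874884, also on the minus strand. Igfbp3 (ENSMUSG00000020427, minus strand) spans chr11:7206086-7213923 and Igfbp4 (ENSMUSG00000017493, plus strand) chr11:99041244-99054392. Igf1r (ENSMUSG00000005533) spans chr7:67952827-68233668, Igf1 (ENSMUSG00000020053) chr10:87858265-87937042 and Igfbp6 (ENSMUSG00000023046) chr15:102144362-102149511, all on the plus strand, and Igf2r (ENSMUSG00000023830) chr17:12682406-12769664 on the minus strand.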

How the data were processed

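RNA of 1 shcircCsnk1g3 and 1 shCTR library was sequenced from TruSeq Stranded mRNA preparations. Per the study's methods, reads were aligned to GRCm38 with STAR and counted per gene with RSEM. The first table the authors deposited holds estimated counts, which are whole numbers without normalization. Its 92 spike-in rows, all at 0, were left out. The other table the authors deposited holds a signal per gene, TMM-scaled CPM, for 11624 genes. Its values equal the counts scaled by 1 factor per library. Whether counting used the strand is not given in the sources used here, and RSEM divides reads that match several genes.

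TMM factors (1.01 and 0.989) came from edgeR 4.0.16 in R 4.3.3 over the 12941 genes for which 1 library or both reached 10 counts. Log2 fold changes used a prior count of 2. Other steps used python 3.11.15 with scipy 1.17.1, pandas 2.3.3 and numpy 2.4.6, and matplotlib 3.10.9 for plots. Intervals are at 95%, cover counting error only and compare libraries. Differences between 2 genes used the exact conditional odds ratio. Lengths and positions are from GENCODE M21, which held all 10 genes. The release the authors used is not given in the sources used here. The steps were tested on simulated counts that held counting error only, which cannot show the spread between cultures. In that simulation 65 of 12741 unchanged genes were at or past 2-fold.

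The 10 genes, the pathway lists and the motifs were chosen with earlier results of these data known. Named pathway genes are the highest and lowest of each list with at least 200 summed counts, those past 2-fold with as many, and Ins1, Ins2 and Igf2. Others are marked where they appear. The alternatives were DESeq2 1.42.0 size factors, total counts, the deposited table, prior counts of 0.5 and 10, other count filters, other fold thresholds, a correction for GC content and length, and the longest transcript as length. For 1 gene of the pathway lists the values are left out of the text, but all 91 genes entered the counts and medians of the lists where they passed.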

Additional observations from a re-analysis of the deposited data

How the results depend on the processing

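No paired analysis was possible because each condition had 1 library, and for the same reason no replicate could be left out. Depth limits Igf1 and Igfbp5, whose intervals span more than 2-fold. Of 54 log2 fold changes of the 9 genes under alternatives that enter the fold change (count filters do not), 52 stayed within their own intervals and none changed sign. The other 2 were those of Igfbp4, with a narrow interval: -0.63 with total counts and -0.71 with the correction for GC content and length. Of the 9 genes, 0 were lower by 2-fold or 4-fold and 1 by 1.5-fold, Igfbp4. With total counts, which shift the median of all genes to 0.03, 4 intervals lay above 0, those of Irs2, Insr, Igf2r and Igfbp6 (2 with TMM), 2 lay below 0 (3 with TMM), and the median of the pathway lists was 0.00. With the correction for GC content and length, 3 intervals of the 9 genes lay above 0 and 3 below. With at least 200 summed counts, which leaves out Igf1, the median of the members was -0.01. Of the pathway genes, the 1 that was 2-fold higher became 2 without a filter, 0 with at least 200 summed counts, 6 at 1.5-fold and 0 at 4-fold. The 2 that were 2-fold lower became 1 in the deposited table, 1 with at least 50 summed counts, 0 with at least 200, 7 at 1.5-fold and 3 with a prior count of 0.5. Filters and thresholds change these numbers by construction, and for the deposited table fewer genes, 74 of the 78, were left. With the longest transcript as length, 11 of 20 levels per kb left their counting intervals but within each library the order of the 10 genes was that found with the union of exons.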

Other observations

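Genes that FOXO factors are known to raise, and that insulin signalling holds down, lay on both sides. Of 15 on the list, 14 passed the count minimum, with 5 intervals above 0, 6 below, 3 that held 0 and a median log2 fold change of -0.02. Over all genes, 26.9% of intervals lay above 0 and 28.2% below. The highest with at least 200 summed counts was Pik3ip1, an inhibitor of PI3-kinase, with 416 counts in shcircCsnk1g3 and 262 in shCTR or 0.77 on the log2 scale, with an interval that began at 0.55. The lowest was Fbxo32, a ubiquitin ligase of muscle wasting, with 526 and 874 counts and -0.62 (-0.78 to -0.47). Bcl2l11, which encodes the cell death protein BIM, had 1194 and 1932 counts with -0.59 (-0.69 to -0.48), while Gadd45a, a growth arrest gene that stress pathways also raise, had 4401 and 2897 counts with 0.71 (0.64 to 0.78). Bcl2l11 and Gadd45a were picked after their values were seen.

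The RNA-binding proteins named for Igf2 mRNA were well expressed although Igf2 itself had 0 counts. Igf2bp1 had 2573 and 2327 counts, or 0.25 on the log2 scale (0.17 to 0.33), and Igf2bp2 had 7457 and 8677 with -0.11 (-0.16 to -0.07). Igf2bp3, also picked after its values were seen, had 462 and 505 counts with an interval that held 0.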
